A study of Mus musculus with 6 samples.

Results

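The genes of activin, inhibin and Nodal signalling were followed through 6 RNA-seq libraries of germline stem (GS) cells, cultured mouse spermatogonia that keep stem cell activity. There were 10 such genes among 32285 in the table, namely Inhbb, Inhba, Inha, Nodal, Fst, Fstl1, Tdgf1, Acvr1b, Acvr2a and Acvr2b. Inhbb was chosen by its lower values in the Space libraries, and the other 9 were taken as its pathway. The difference of Inhbb between the groups is therefore given as a description, with no test. All 10 were found by gene symbol, 9 had enough counts to be tested, and Tdgf1 did not.

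The GS cells came from testes of DBA/2 mice aged 2 to 3 days, with the genotype DBA/Tg14(act-EGFP-OsbY01), and both groups carried this transgene. They were grown with GDNF and FGF2 on mouse embryonic fibroblasts, frozen, and thawed after 6 months. The frozen cells of the 3 Space libraries spent that time on the International Space Station and those of the 3 Ground libraries on Earth. RNA was taken on the day after thawing, without passage. The titles name the groups, and the treatment label says the opposite of the title in 6 of 6 libraries. Each direction below follows the titles and would change sign under the treatment label.

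Activins are dimers of beta subunits encoded by Inhba and Inhbb, and inhibins pair a beta subunit with the alpha subunit encoded by Inha. Activins and Nodal bind type II receptors (Acvr2a, Acvr2b), which recruit the type I receptor ALK4 (Acvr1b) to phosphorylate Smad2 and Smad3. Follistatin (Fst) captures activins, and Nodal needs a co-receptor of the Cripto family (Tdgf1). In the testis, Sertoli cells secrete inhibin B, which restrains pituitary FSH, and activins act on germ cells around birth.

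The beta subunit genes differ in their promoters, shown here because Inhbb and Inhba are the activin genes whose levels are compared below. Each RefSeq window (GRCm38.p6) runs from 250 bases before to 50 bases after the gene start, with capitals at GGGCGG or TATAAA on either strand. The window of Inhbb is chr1:119422199-119422498 on the minus strand, and that of Inhba is chr13:16011601-16011900 on the plus strand.
Inhbb: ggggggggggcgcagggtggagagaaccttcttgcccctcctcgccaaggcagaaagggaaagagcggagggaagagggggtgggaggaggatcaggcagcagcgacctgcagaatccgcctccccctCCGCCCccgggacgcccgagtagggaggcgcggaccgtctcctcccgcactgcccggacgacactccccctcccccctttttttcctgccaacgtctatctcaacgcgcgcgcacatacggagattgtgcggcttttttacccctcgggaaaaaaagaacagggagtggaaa
Inhba: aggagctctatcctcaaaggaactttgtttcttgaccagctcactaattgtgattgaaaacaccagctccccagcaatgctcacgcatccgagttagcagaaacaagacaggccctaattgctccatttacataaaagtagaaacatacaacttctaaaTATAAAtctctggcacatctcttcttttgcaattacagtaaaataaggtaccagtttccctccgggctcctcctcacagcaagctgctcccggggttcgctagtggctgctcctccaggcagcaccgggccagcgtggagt
The Inhbb window held 23 CpG sites and 64.3% G or C, with 1 GGGCGG motif starting 122 bases before the gene start and no TATAAA. Inhba had 7 CpG sites and 47.7% G or C, with no GGGCGG and 1 TATAAA starting 91 bases before the gene start. Among all 32851 windows of this length, 35.7% held GGGCGG, 13.6% held TATAAA and the median was 7 CpG sites. These matches describe the sequence only. The Smad-binding motif CAGAC, in 49.6% of all windows on either strand, was in neither of these promoters and was found once each in Inha, Acvr2a, Acvr2b and Tdgf1, of the 9 members with a window.

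Levels are given as CPM, the counts of a gene per 1000000 counts of the library, after its size was scaled with the TMM method of edgeR. Totals ran from 19015985 to 24110916 counts per library, and mitochondrial genes took 2.51% to 11.5% of them. The libraries resembled one another across the groups. Ground-1 was most like Space-3, Ground-2 like Space-2 and Ground-3 like Space-1, with deviations from the group means correlated at 0.63, 0.28 and 0.60 over the 1000 most variable genes, which are not independent. Whether such libraries share a line or a culture is not stated in the labels. The paper speaks of lines of Space and Ground GS cells, without saying which library came from which line. Germ cell identity was plain in each library, with all 14 spermatogonia markers detected and Ddx4, the germ cell RNA helicase, at 375.6 to 422.0 CPM. The summed level of the 14 was 3694 to 4033 CPM in Ground and 3727 to 4047 CPM in Space. Single markers varied more, with Bcl6b at 57.6 to 371.3 CPM and Etv5 at 93.0 to 261.8 CPM, both lowest in Ground-3 and Space-1. Of 22 feeder fibroblast markers none was at 0 counts in all libraries, and their summed level was 1074 to 1113 CPM in Ground and 885 to 1128 CPM in Space. Of 8 markers of Sertoli and granulosa cells, the classical source of inhibins, Fshr was at 0 counts throughout and Amh at 0.053 to 0.947 CPM, while Wt1 had 16.1 to 19.7 CPM and Sox9 4.41 to 9.60 CPM. Their summed level was 24.7 to 28.5 CPM in Ground and 25.7 to 27.4 CPM in Space. Of 6 Leydig cell markers Hsd3b1 and Lhcgr were at 0 counts and the sum was 4.45 to 5.04 CPM in Ground and 4.16 to 4.56 CPM in Space, nearly all of it Star. The part of either list in the results below was not tested. Of 5 markers of pluripotent cells, in which Nodal and Tdgf1 are typically active, Nanog had at most 0.351 CPM. Pou5f1 had 67.9 to 157.5 CPM, Sox2 10.8 to 28.9, Zfp42 22.8 to 25.6 and Esrrb 5.04 to 9.48 CPM. Their sum with Nanog was 112 to 214.9 CPM in Ground and 117.6 to 196.2 CPM in Space.

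Inhbb, which encodes the beta B subunit, was the member without overlap between the groups, on the contrast for which it was chosen. Ground-1, Ground-2 and Ground-3 had 4.16, 5.70 and 6.31 CPM, on 101, 107 and 144 counts. Space-1, Space-2 and Space-3 had 2.43, 3.14 and 2.92 CPM, on 59, 59 and 73 counts. Every Space library lay below every Ground library, and the lowest Ground value was that of Ground-1. The means of 5.39 ± 1.11 CPM for Ground and 2.83 ± 0.365 CPM for Space (SD, n = 3) gave a 1.90-fold difference and a log2 difference of -0.93 (SE 0.22). Of all 15104 tested genes, 1.98% had every Space library below every Ground library, and nothing is read from this share because Inhbb was picked on that contrast. The spread of Inhbb in Ground was a coefficient of variation (CV) of 20.6%, against 9.23% from counting alone, and in Space it was 12.9% against 12.5%. Inhbb (ENSMUSG00000037035) lies on chromosome 1 from 119415465 to 119422248 (GRCm38, minus strand), where no other annotated gene overlaps it.

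Inhbb was chosen for its fall in Space and its groups do not overlap, so it is lower in Space under any matching of the libraries. The difference in log2 CPM was -0.50 for Space-3 minus Ground-1, -0.84 for Space-2 minus Ground-2 and -1.35 for Space-1 minus Ground-3. On average it was 0.89 in size between these libraries and also 0.89 over the other Ground and Space combinations. These averages must be equal when the groups do not overlap, so nothing is read from them. Space-1, with the lowest Inhbb, also had the lowest feeder marker sum of 885 CPM. In Space-2 the feeder sum was the highest of the 6 at 1128 CPM, against 1103 CPM in Ground-2, while Inhbb was 3.14 CPM against 5.70. This sum mainly reflects Fn1 and Col5a1, with 464.5 and 283.8 CPM in Space-2 and 445.7 and 272.9 CPM in Ground-2. By fitted difference 21 of the 22 feeder markers were lower in Space, where 51.3% of all tested genes were, with a median log2 fold change of -0.29 against -0.0020 over all tested genes. Every Space library lay below every Ground library for 2 of the 22, against 1.98% of all tested genes. For the rest the groups overlapped, so a lower fitted difference does not mean a lower level in each Space library. None of the 22 passed edgeR's test, and 3 had an unadjusted p under 0.05, against 0.609% of all tested genes. Their part in the Inhbb difference was not tested. In these bulk libraries fewer cells of a type and less RNA per cell cannot be told apart.

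**Figure D1:**
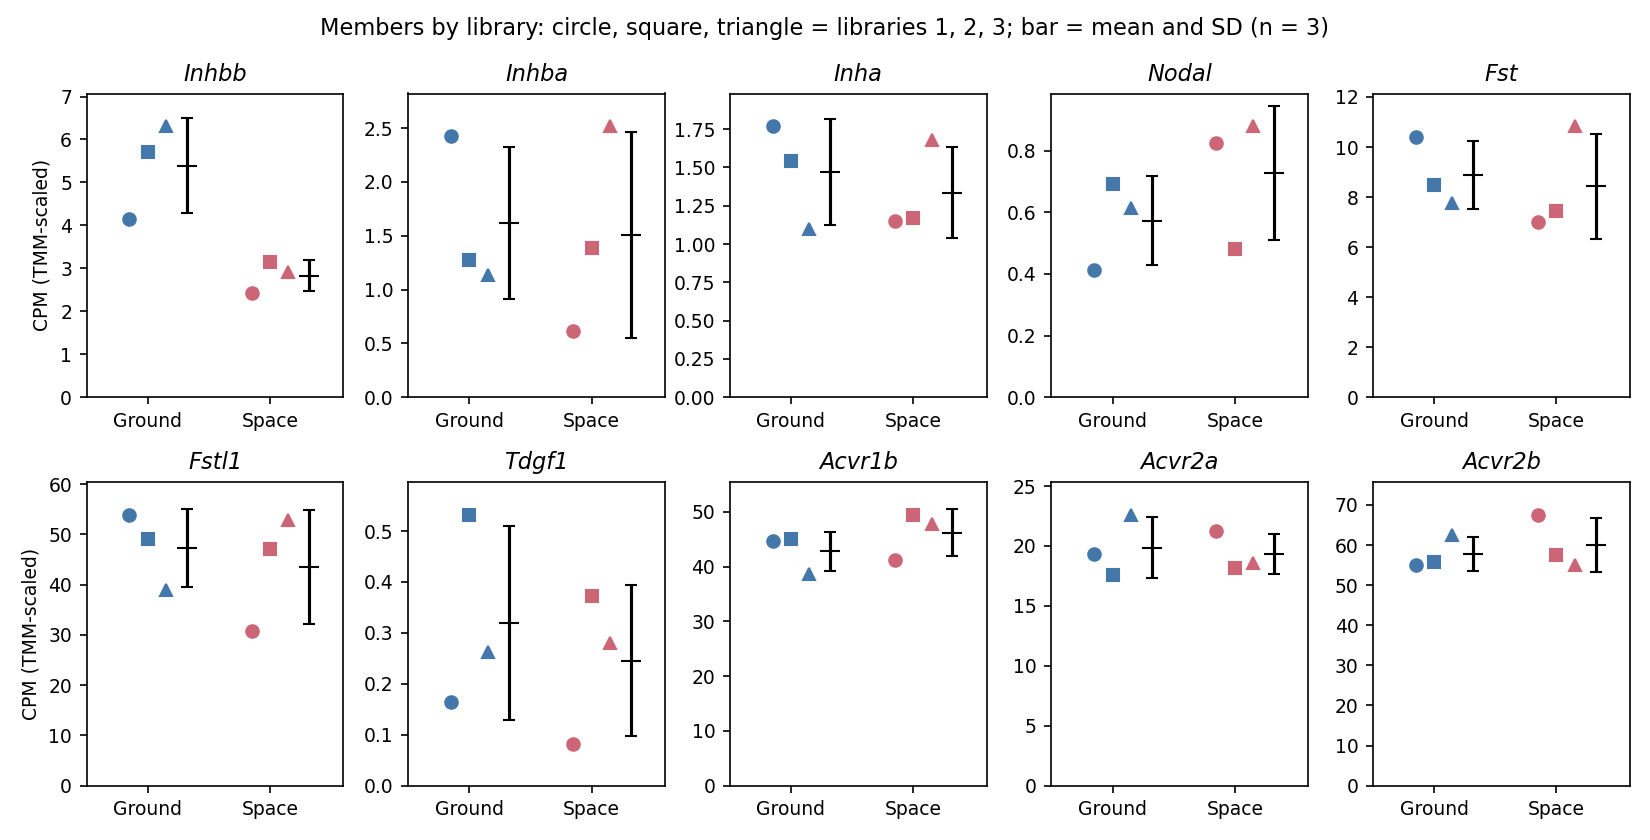
CPM of each member (vertical axes, linear from 0, own scale in each panel) in the Ground and Space libraries, with black bars for the mean and SD of 3. Inhbb separates the groups, with Ground from 4.16 to 6.31 and Space from 2.43 to 3.14, and the other 9 panels overlap.

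Inhba, encoding the beta A subunit of activin A, was lower than Inhbb and varied far more. Ground-1, Ground-2 and Ground-3 had 2.43, 1.28 and 1.14 CPM of Inhba, and the Space libraries in the same order had 0.618, 1.38 and 2.52 CPM. The highest values were those of Ground-1 and Space-3 and the lowest that of Space-1, so the groups overlapped widely. The Ground mean of Inhba was 1.62 ± 0.708 CPM and the Space mean 1.51 ± 0.957 CPM (SD, n = 3), with a log2 fold change of -0.10 (SE 0.52, 95% confidence interval -1.31 to 1.11, edgeR adjusted p = 0.9999). The CV of Inhba was 43.8% in Ground and 63.5% in Space, where counting alone gives 16.6% and 17.0%. Between the libraries most like each other its log2 CPM differed by 0.32 on average, against 0.97 over the other Ground and Space combinations. This average was also smaller in the libraries most like each other for the other members except Nodal and Inhbb. Nodal had 0.60 against 0.39, and for Inhbb the averages must be equal. The matching was drawn from the values of these libraries, which favours smaller differences within it. The share of all tested genes with a smaller difference was not computed. Per length, Inhbb made up 72.0%, 87.0% and 89.3% of the beta subunit RNA (Inhbb plus Inhba) in Ground-1 to Ground-3. Its share was 85.5%, 77.3% and 63.5% in Space-1 to Space-3, so the groups overlapped in this share although they did not in Inhbb itself.

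Inha, the alpha subunit that turns a beta subunit into an inhibin, was weakly expressed. It had 1.77, 1.54 and 1.10 CPM in the Ground libraries 1, 2 and 3 and 1.15, 1.17 and 1.68 CPM in the Space libraries 1, 2 and 3, on 22 to 43 counts per library. Ground-1 and Space-3 were again the highest, and the groups overlapped. The log2 fold change of Inha was -0.13 (SE 0.30, 95% confidence interval -0.84 to 0.57, edgeR adjusted p = 0.9999). Its CV of 23.3% in Ground and 22.4% in Space was not far above the 17.6% and 18.1% that counting gives.

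Nodal and its co-receptor gene were close to the limit of detection. Nodal, the ligand best known for patterning the early embryo, had 10, 13 and 14 counts in Ground and 20, 9 and 22 in Space, or 0.412 to 0.880 CPM. Its log2 fold change of 0.37 (SE 0.38, 95% confidence interval -0.50 to 1.25, edgeR adjusted p = 0.9999) was smaller than its standard error. Counting alone gives Nodal a CV of 28.5% in Ground, against 25.3% observed, and 24.3% in Space, against 29.8% observed. Tdgf1 had 4, 10 and 6 counts in Ground and 2, 7 and 7 in Space, and at this depth no difference was detectable for it. Lefty1, Lefty2 and Cer1, which encode secreted Nodal antagonists, were at most at 0.160 CPM in any library, and Cfc1, the other Cripto family gene, had 0 counts in all 6.

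Fst was followed as a gene of an activin-binding protein, and Fstl1 as a gene related to it. Follistatin RNA (Fst) was at 10.4, 8.47 and 7.76 CPM in Ground, in the order of the numbers, and at 7.001, 7.46 and 10.8 CPM in Space. Ground-1 and Space-3 were the 2 highest and the groups overlapped, with a log2 fold change of -0.073 (SE 0.21, 95% confidence interval -0.56 to 0.41, edgeR adjusted p = 0.9999). Fstl1, a secreted glycoprotein related to follistatin and typical of mesenchymal cells, had 53.9, 49.1 and 38.8 CPM in Ground and 30.8, 47.0 and 52.8 CPM in Space. Its lowest values were those of Space-1 and Ground-3, and its log2 fold change was -0.12 (SE 0.20, 95% confidence interval -0.59 to 0.35, edgeR adjusted p = 0.9999). Without Space-1 the fitted difference turned positive for Inhba (0.28), Fst (0.047) and Fstl1 (0.078). The average difference in log2 CPM between the libraries most like each other was 0.13 for Fst and 0.14 for Fstl1, against 0.37 and 0.42 over the other Ground and Space combinations. Fst shares 115 exon bases with the antisense gene Gm47040, which had 27 counts in all, and the strand setting of the counting was not given.

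**Figure D2:**
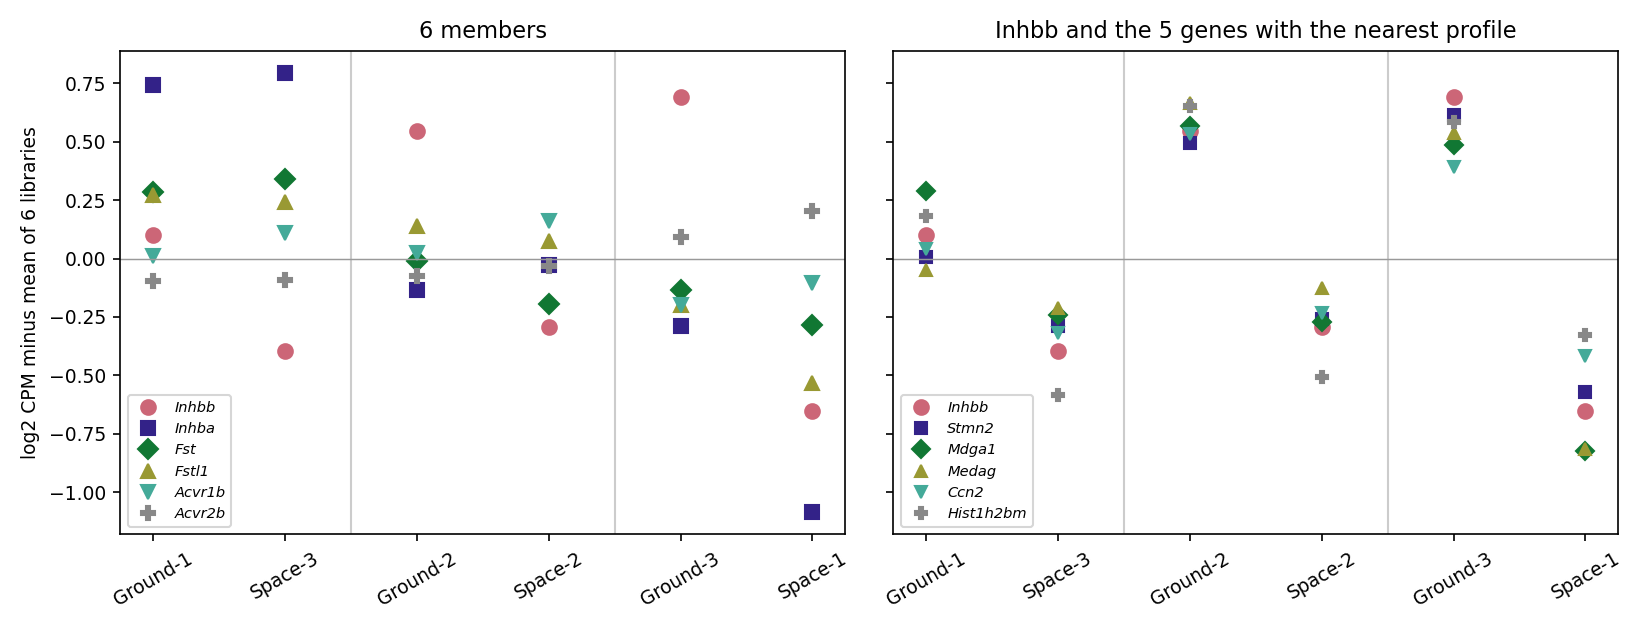
log2 CPM of single genes minus their mean over the 6 libraries (vertical axis), with libraries ordered so that those most like each other stand side by side between grey lines. In the left panel Inhba, Fst and Fstl1 are high in both Ground-1 and Space-3 and low in Space-1, while Inhbb is above its mean in each Ground library and below it in each Space library. The right panel shows Inhbb with Stmn2, Mdga1, Medag, Ccn2 and Hist1h2bm.

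The 3 receptor genes varied least among the members, with the highest library at 1.23 to 1.29 times the lowest. Acvr2b, a type II receptor, had 55.0, 55.7 and 62.5 CPM in Ground and 67.6, 57.4 and 55.0 CPM in Space. Ground-3 and Space-1 had the highest values. The log2 fold change of Acvr2b was 0.056 (SE 0.096, 95% confidence interval -0.17 to 0.28, edgeR adjusted p = 0.9999). Acvr1b, the type I receptor ALK4, had 44.6, 45.1 and 38.6 CPM in Ground and 41.3, 49.5 and 47.8 CPM in Space, with a log2 fold change of 0.11 (SE 0.099, 95% confidence interval -0.12 to 0.34, edgeR adjusted p = 0.9999). Ground-3 and Space-1 had the lowest values of Acvr1b, the reverse of Acvr2b. Acvr2a, the other type II receptor, had 19.3, 17.6 and 22.6 CPM in Ground and 21.3, 18.2 and 18.6 CPM in Space, with a log2 fold change of -0.038 (SE 0.12, 95% confidence interval -0.32 to 0.25, edgeR adjusted p = 0.9999). It shares 446 exon bases with Orc4 on the opposite strand, which had 4224 counts in all, so its level is uncertain without the strand setting. Per length, Acvr2b exceeded Acvr2a in every library, by 4.0-fold to 4.6-fold, and this ratio averaged 4.24 ± 0.314 over the Ground libraries and 4.49 ± 0.178 over the Space libraries (SD, n = 3; 2-sided exact permutation p = 0.3, where 0.1 is the smallest possible, and 0.6 adjusted over both ratios). The ratio of Acvr1b to Acvr2b per length was lowest in Ground-3 (0.549) and Space-1 (0.543) and 0.719 to 0.773 in the other 4 libraries. Its group means were 0.663 ± 0.0988 and 0.694 ± 0.131 (SD, n = 3; exact permutation p = 0.6, 2-sided, and 0.6 after Benjamini-Hochberg adjustment).

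Set side by side per kilobase of exon, each of the 3 receptor genes exceeded each of the 4 ligand subunit genes in all 6 libraries. Acvr2b was highest at 14.0 to 17.2 CPM per kilobase, then Acvr1b at 8.74 to 11.2 and Fstl1 at 6.28 to 10.97, and the ranges of the latter pair overlapped. Acvr2a at 3.09 to 3.98 and Fst at 1.53 to 2.36 CPM per kilobase overlapped with neither neighbour. Inhbb at 0.571 to 1.48 and Inha at 0.743 to 1.20 overlapped with each other. So did Nodal at 0.197 to 0.420 with Inhba at 0.0967 to 0.394, and Inhba with Tdgf1 at 0.0314 to 0.203 CPM per kilobase. By its mean Acvr2b stood above 73.9% of the tested genes and Inhbb above 22.5%.

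**Figure D3:**
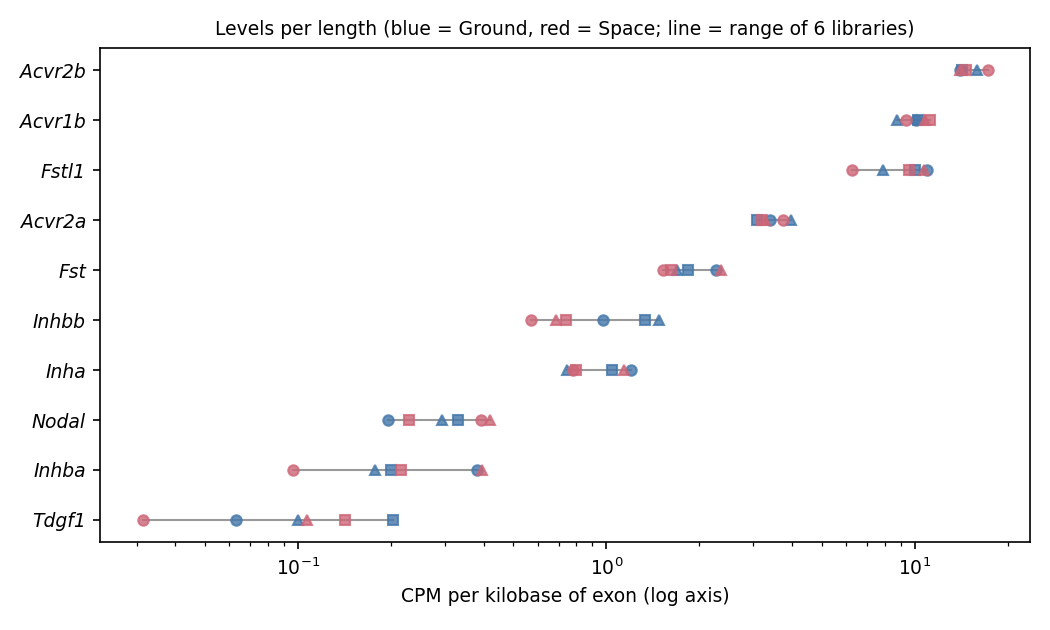
CPM per kilobase of exon (log axis) of the 10 members in each library, ordered by mean, with grey lines for the range of 6 libraries. Acvr2b lies from 14.0 to 17.2 and Tdgf1 from 0.0314 to 0.203.

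Of the 8 other tested members 0 passed edgeR's test at an adjusted p of 0.05, where 0% of all 15104 tested genes did. None of the 8 had an unadjusted p under 0.05, against 0.609% of all tested genes, and the same count of 0 was obtained with DESeq2 and limma-voom. That share of 0.609% is far below the 0.05 that p-values would give with no group difference. This test, which did not use the likeness of libraries across the groups, was therefore conservative here. A count of 0 does not show that nothing changed. None of the 8 separated the groups. Their fitted differences were positive for Nodal, Acvr1b and Acvr2b and negative for the other 5, with a median log2 fold change of -0.056 against -0.0020 over all tested genes. For the receptors the 95% confidence intervals reach no further than -0.32 and 0.34, and for Inhba they span -1.31 to 1.11. The precision for Inhba depends on the fit, with an SE of 0.52 here and 0.26 when the libraries most like each other were blocked.

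**Figure D4:**
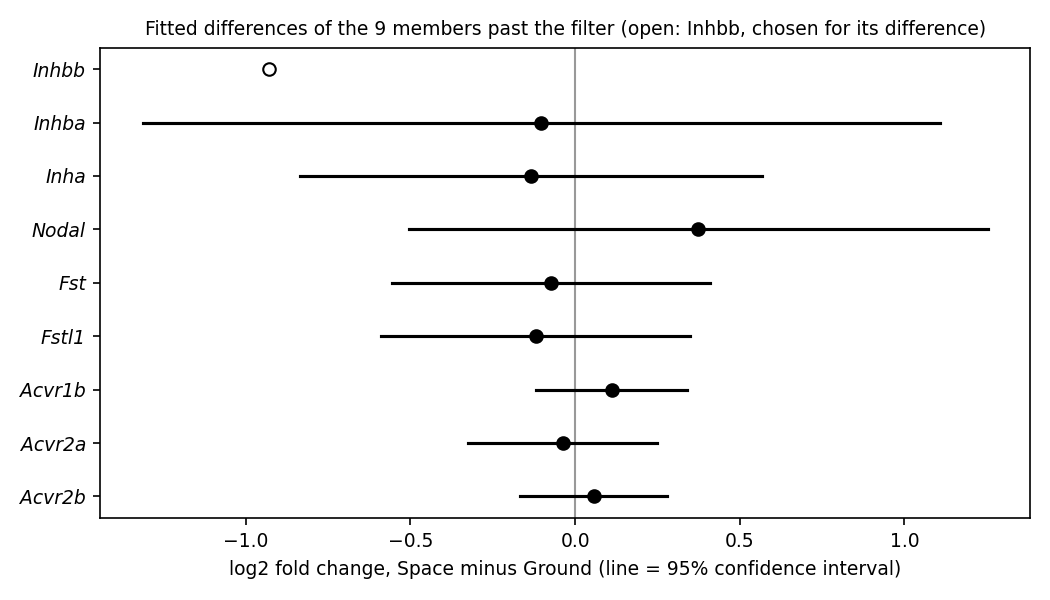
Fitted log2 fold changes, Space minus Ground (horizontal axis), of the 9 tested members, with lines for the 95% confidence intervals of 8. Each of the 8 intervals includes 0, and Inhbb (open circle, -0.93) has none because it was chosen for its difference.

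The wider pathway was taken from 5 lists of 53 genes, of which 42 were tested. None passed edgeR's test (0 with DESeq2 and 0 with limma-voom), 1 had an unadjusted p under 0.05 (0.609% of all tested genes), and 14 had a positive and 28 a negative fitted difference (negative in 51.3% of all tested genes), with a median log2 fold change of -0.022. Of 9 other ligands 5 were tested. Tgfb1, the ligand TGF-beta 1, had the highest level at 8.09 CPM per kilobase and a log2 fold change of -0.015 (SE 0.42), and Gdf11, a ligand that shares the activin type II receptors, followed at 1.45 CPM per kilobase with -0.020 (SE 0.15). The largest differences were -0.71 (SE 0.41) for Gdf3, a Nodal-related ligand, and -0.59 (SE 0.67) for Tgfb2, each with an edgeR adjusted p of 0.9999. Tgfb3 had every Space library below every Ground library, as did 1.98% of all tested genes.

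Among extracellular regulators and receptors outside the 10 genes none had an unadjusted p under 0.05. Of 10 antagonists, co-receptors and convertases 6 were tested, led in level by Furin, the protease that matures many of these ligands, at 10.1 CPM per kilobase, and by the pseudoreceptor Bambi at 2.52 CPM per kilobase. Their log2 fold changes were -0.066 (SE 0.18) and 0.055 (SE 0.12). The largest differences were 0.29 (SE 0.29) for Dand5, a Nodal antagonist, and -0.20 (SE 0.24) for Tgfbr3, or betaglycan, through which inhibin blocks activin receptors. Of 8 other receptors 7 were tested, and Acvr1c, which encodes the alternative Nodal receptor ALK7, had too few counts. Bmpr1a stood at 18.5 CPM per kilobase with a log2 fold change of 0.011 (SE 0.061) and Tgfbr1 at 8.09 CPM per kilobase with -0.091 (SE 0.098). The largest differences were -0.16 (SE 0.28) for Tgfbr2 and -0.14 (SE 0.61) for Acvrl1.

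Downstream, all 15 Smad proteins and regulators were expressed and tested. The co-repressor Ski had the highest level at 68.8 CPM per kilobase (log2 fold change 0.048, SE 0.061), followed by Drap1, a partner that limits Foxh1, at 62.0 CPM per kilobase (-0.017, SE 0.092). Foxh1, the Nodal-responsive Smad partner, differed most with 0.30 (SE 0.32), and the inhibitory Smad7 next with 0.14 (SE 0.16). Smurf1, a ubiquitin ligase of the pathway, had every Space library above every Ground library, by 0.053 (SE 0.050), as did 1.61% of all tested genes. Smad2 and Smad3 had log2 fold changes of 0.015 (SE 0.061) and -0.0075 (SE 0.12).

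Among 11 genes listed as targets of this family 9 were tested, 8 with a negative fitted difference, and the median log2 fold change was -0.11. Id1 and Id3, which respond mainly to BMP, had the highest levels at 18.9 and 18.1 CPM per kilobase, with log2 fold changes of -0.084 (SE 0.18) and -0.11 (SE 0.16). The largest differences were -0.69 (SE 0.26) for Ccn2, a matricellular protein made by fibroblasts, and -0.65 (SE 0.42) for Id2, each with an edgeR adjusted p of 0.9999. Ccn2 was the 1 gene of the 42 with an unadjusted p under 0.05 and had every Space library below every Ground library, at 1.56, 2.24 and 2.02 CPM in Ground and 1.11, 1.28 and 1.20 CPM in Space. Over all tested genes 0.609% had such a p and 1.98% had every Space library below every Ground library, which 2 of the 42 had (Ccn2 and Tgfb3).

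**Figure D5:**
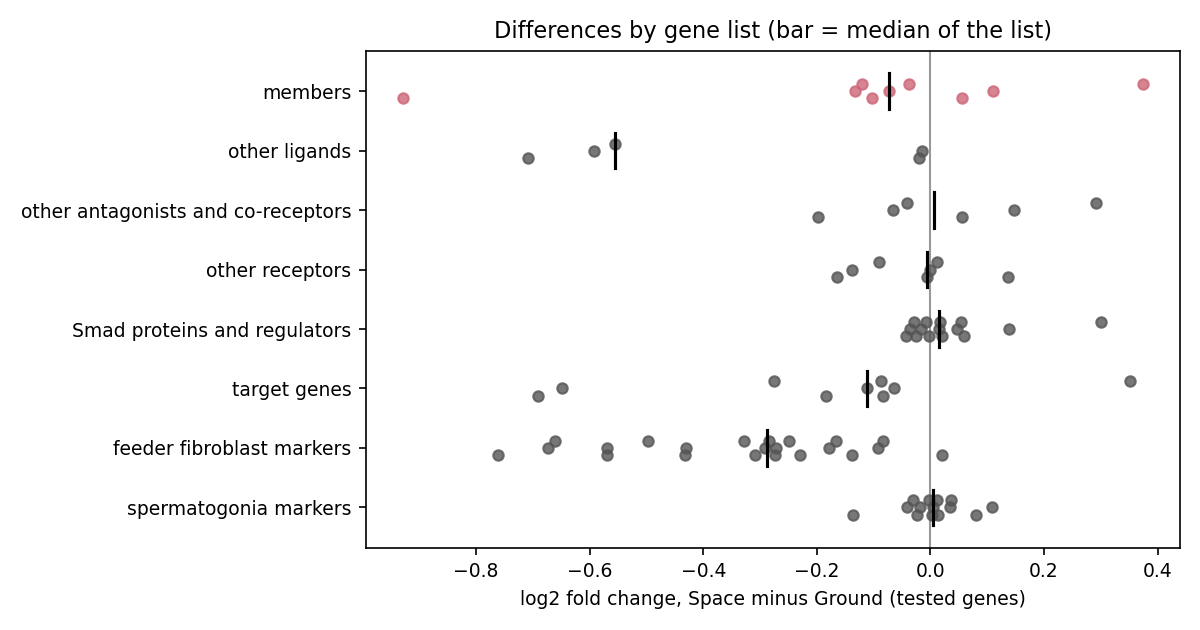
Fitted log2 fold changes, Space minus Ground (horizontal axis), of the tested genes of each list, with black bars for the list median. Inhbb is the lowest member at -0.93, the spermatogonia markers lie close to 0 and 21 of 22 feeder fibroblast markers lie below 0.

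The genes whose profile was most like that of Inhbb were Stmn2, Mdga1, Medag, Ccn2 and Hist1h2bm. Likeness was the root mean square difference of log2 CPM over the 6 libraries after each gene was centred on its own mean, and it was 0.079, 0.15, 0.16, 0.16 and 0.19. All 5 had few counts, from 58 in Ground and 33 in Space for Stmn2 to 126 and 81 for Ccn2, and in each every Space library lay below every Ground library, which likeness to Inhbb favours. Stmn2, a tubulin-binding protein best known from neurons, had 0.659, 0.958 and 1.05 CPM in Ground and 0.412, 0.533 and 0.520 CPM in Space. The 22 feeder markers were spread over the ranking of 15103 genes, from rank 18 for Loxl1, a collagen cross-linking enzyme (0.23), to rank 14353 for Postn, the matrix protein periostin (0.79). Their median rank was 867, with 12 of 22 under rank 1000 of 15103 and 6 of 22 at a larger difference than Acvr2a. Any gene lower in Space ranks nearer to Inhbb, which was chosen for its fall there. These ranks therefore repeat the lower fitted differences of the feeder markers, and no link of Inhbb to feeder cells is read from them. Of the other members Acvr2a had the smallest difference at rank 5207 (0.50), then Fstl1 at rank 6999 (0.51), and Inhba stood at rank 14252 (0.77). A gene that hardly varies gets a difference set by the Inhbb profile alone, so these ranks are not read as likeness to Inhbb.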

How the data were processed

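RNA was measured in 6 libraries of GS cells, 3 titled Space and 3 titled Ground. The authors deposited raw counts per gene, 1 column per library, with nothing pooled. Per the methods and the submitters' processing notes, reads were trimmed with cutadapt (4.1 in the notes) and aligned to mm10 with HISAT2 2.2.1 and GENCODE M21. The notes also name HTSeq 2.0.2. Its strand setting and its handling of shared reads are not given in the sources used here. Positions and exon lengths come from GENCODE M21, which holds 32235 of the 32285 identifiers, and promoters from RefSeq.

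Genes were filtered with filterByExpr, scaled by TMM and tested across 15104 genes with the 2-sided quasi-likelihood test of edgeR 4.0.16 (R 4.3.3), Benjamini-Hochberg adjusted, threshold 0.05. The SE is the log2 fold change divided by the square root of F. log2 CPM used a prior count of 2. Groups hold 3 libraries that the labels call biological replicates, so p-values measure the spread between these libraries. Depth was 19015985 to 24110916 counts per library. Procedures were tested on simulated data, which did not hold the likeness of libraries across the groups. Alternatives were RLE, total counts, no mitochondrial genes, other filters, DESeq2 1.42.0, limma-voom 3.58.1, replicate blocks and leaving out each library.

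The members and the gene lists were chosen with earlier results of these data known. Named were the 10 members, the 2 highest and 2 most different tested genes of each other pathway list, the 5 nearest profiles to Inhbb and defining markers. Tgfb3, Smurf1, Smad2, Smad3, Loxl1, Postn and the genes at or near 0 counts were named after their values were seen. So were Wt1, Star, Pou5f1, Zfp42, Esrrb, Fn1, Col5a1, Bcl6b and Etv5.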

Additional observations from a re-analysis of the deposited data

How the results depend on the processing

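The number of other members past the threshold was 0 in all 15 alternatives, as was that of the 53 other pathway genes (a range of 0 to 0 when single libraries were left out). The log2 difference of Inhbb kept its sign in all 15, from -1.09 (without Ground-1) to -0.79 (without Ground-3) when one library was left out. Nothing is read from the kept sign, since Inhbb was chosen for its fall in Space. Its groups do not overlap, so its sign could not turn in the fits that left out a library. The sign of 6 weak differences turned in some of those fits, whose lowest and highest values were -0.72 and 0.32 for Inhba, -0.34 and 0.029 for Inha, -0.30 and 0.059 for Fst, -0.28 and 0.078 for Fstl1, -0.12 and 0.072 for Acvr2a and -0.040 and 0.12 for Acvr2b. No reversed value passed the threshold, and no other alternative turned a sign.

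Replicate numbers did not pair the libraries, since deviations from the group means correlated at -0.48, 0.28 and -0.60 in same-numbered libraries. With these numbers as replicate block Inhbb had a log2 difference of -0.92 (SE 0.21) and 0 other members passed, with 0 at an unadjusted p under 0.05. A replicate block of the matching that earlier results had drawn from the values themselves (Space-3 to Ground-1, Space-2 to Ground-2 and Space-1 to Ground-3) gave Inhbb -0.92 (SE 0.16). In that fit Fstl1 (-0.13, SE 0.052, edgeR adjusted p = 0.534) and Acvr1b (0.11, SE 0.047, edgeR adjusted p = 0.583) had an unadjusted p under 0.05 and did not pass, as had 4 of the 42 other pathway genes, but so had 7.26% of all tested genes, against 0.609% without the block. Over all genes 38 passed the threshold with this block and 0 without it. The SE of Inhba was 0.26 there, against 0.52. Counting error limits Nodal, Inha and Tdgf1, and Tdgf1 was tested only without a filter and with the minimum of 10 counts (-0.37, SE 0.69 and 0.68).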
